A study of Homo sapiens with 2 samples.

Results

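The 3 olfactory receptor gene clusters examined here were intervals of the hg19 genome on chromosomes 11 and 1, and the peaks of LSD2 with a midpoint inside them were their members. Chromosome 11 from 4300000 to 6200000 is called the 11p15 cluster, chromosome 11 from 55000000 to 56600000 the 11q11 cluster, and chromosome 1 from 247600000 to 248800000 the 1q44 cluster. They held 196, 141 and 119 peaks in that order, which made 456 of the 370863 distinct peaks in the list, or 0.123%. Membership of a peak rested on its position alone, not on its width or spacing. The intervals and measures themselves were chosen with earlier results of these data known.

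The peaks came from chromatin immunoprecipitation followed by sequencing in HepG2, a human liver tumour line, cultured in high-glucose medium (25 mM) that contained 10% serum. The data comprised 1 library precipitated with a rabbit polyclonal antibody against LSD2 and 1 input library of sonicated chromatin from the same line, with no genetic change or drug named for either. The authors merged both into 1 list of regions in which the LSD2 library exceeded the input, and the list gives positions without a height or p-value. There was no replicate, so no difference below could be set against replicate error and none was tested. Intervals are exact 95% intervals that cover counting error only and treat peaks as independent, which neighbouring peaks need not be.

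Olfactory receptors are odorant-binding G protein-coupled receptors whose genes lie in tandem arrays, and an olfactory sensory neuron typically uses a single receptor gene while the others stay silent. Most are not expected to be transcribed in liver cells. LSD2, encoded by KDM1B, removes methyl groups from lysine 4 of histone H3 and has been described in the bodies of transcribed genes, where it works with the cofactor GLYR1. In mouse olfactory neurons the related demethylase LSD1 is needed for receptor choice. Transcription was not measured in these data, so the silence of the clusters could not be checked.

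RefSeq on assembly GRCh38.p14 shows what genes neighbour each other in these arrays, and since the peaks are on hg19 no gene was placed on a peak. From RRM1 to C11orf42 on chromosome 11, the stretch that corresponds roughly to the 11p15 cluster by map position, it lists 103 olfactory receptor genes, of which 55 are annotated as protein-coding and 48 as pseudogenes. Families OR52 with 49 genes and OR51 with 44 make up most of them. This array is interrupted by other genes, among them the beta-globin genes HBB, HBD, HBG1, HBG2 and HBE1, the metalloproteinase gene MMP26 and the TRIM5, TRIM6, TRIM22 and TRIM34 genes of antiviral and related ubiquitin ligases. From TRIM48 to LRRC55, the stretch corresponding roughly to the 11q11 cluster, there are 106 receptor genes, 46 protein-coding and 60 pseudogenes, led by family OR5 with 56 genes. No protein-coding gene of another kind stands between those end genes except TRIM51. From OR2B11 to LYPD9P on chromosome 1, corresponding roughly to the 1q44 cluster, there are 56 receptor genes, 43 protein-coding and 13 pseudogenes, and 43 of the 56 belong to family OR2. The other protein-coding genes of that array are GCSAML and TRIM58.

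LSD2 peaks were present throughout all 3 clusters, at a density below that of the surrounding sequence. Pooled over the clusters there were 97.0 peaks per Mb (88.3 to 106), against 127 (119 to 135) in the flanks and 124 (123 to 125) in the rest of chromosomes 11 and 1. Flanks were the 2 Mb on each side, and the rest left out all clusters and flanks. Receptor genes in the flanks and the rest were not counted, so neither is known to be free of them. The length used in each density, the searched sequence, left out peak-free stretches over 500 kb and the sequence beyond the first and last peak of a chromosome. The pooled ratio was 0.765 (0.684 to 0.854) to the flanks and 0.784 (0.713 to 0.859) to the rest. Lines that the list repeats were counted once here. With every line counted the pooled ratio was 0.885 (0.804 to 0.974) to the flanks and 0.972 (0.897 to 1.05) to the rest, where the interval includes equality.

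The 11q11 cluster was the sparsest. It had 88.1 peaks per Mb (74.2 to 104), its flanks had 123 (109 to 139) and the rest of chromosome 11 had 121 (119 to 123). Its ratio was 0.715 (0.579 to 0.879) to the flanks and 0.726 (0.611 to 0.857) to the rest. The 1q44 cluster had 99.2 peaks per Mb (82.2 to 119), its flanks 143 (129 to 159) and the rest of chromosome 1 had 125 (124 to 127), at ratios of 0.692 (0.557 to 0.854) and 0.792 (0.656 to 0.948). The 11p15 cluster was nearest to its surroundings, with 103 peaks per Mb (89.2 to 119), against 119 (108 to 130) in its flanks and 121 in the rest of the chromosome. Its ratio to the flanks, 0.869 (0.732 to 1.03), had an interval that includes equality, while that to the rest was 0.850 (0.735 to 0.979). With every line counted both ratios of 11p15 turned above equality, to 1.28 and 1.36. With each cluster shortened by 100 kb at both ends, the ratio to the rest was 0.887 (0.763 to 1.03) for 11p15 and 0.831 (0.679 to 1.01) for 1q44, and with flanks of 1 Mb the ratio of 11q11 to its flanks was 0.850 (0.664 to 1.09), so these 3 intervals then include equality. Between clusters the ratios were 1.17 (0.938 to 1.46) for 11p15 over 11q11, 1.04 (0.824 to 1.32) for 11p15 over 1q44 and 0.889 (0.691 to 1.14) for 11q11 over 1q44, so counting error alone spans their order.

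**Figure D1:**
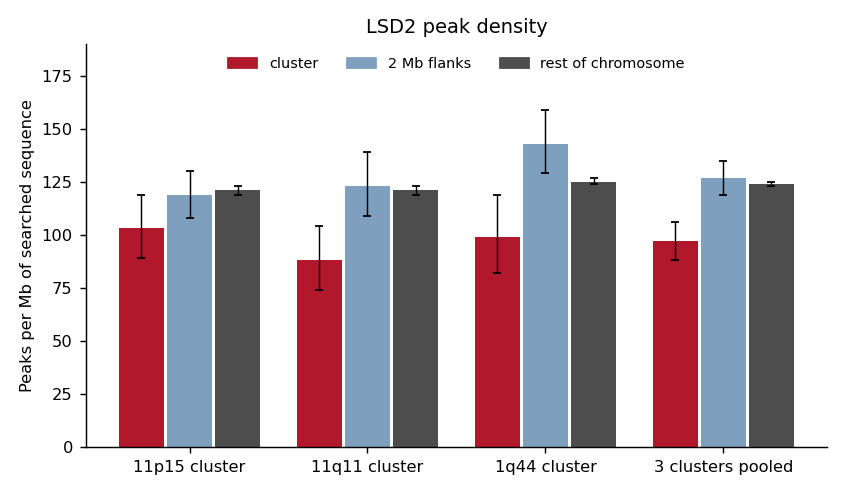
LSD2 peaks per Mb of searched sequence (vertical axis) in each olfactory receptor cluster, its 2 Mb flanks and the rest of its chromosome, with exact 95% Poisson intervals. Each cluster bar is the lowest of its 3, from 88.1 peaks per Mb at 11q11 to 103 at 11p15.

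The sides of a cluster were unlike each other. The 1q44 cluster had 99.2 peaks per Mb, against 155 on its left, from 310 peaks, and 88.1 (62.0 to 121) on its right, where the searched sequence ended after 0.42 Mb at the last peak of the chromosome. Its ratio was 0.640 (0.513 to 0.793) to the left side and 1.13 (0.773 to 1.68) to the right. The 11q11 cluster, at 88.1, stood against 77.6 (44.4 to 126) on the left, where only 0.206 Mb was searched because a peak-free stretch of 3.20 Mb lay beyond it, and 128 (113 to 145) on the right. Its ratios were 1.14 (0.675 to 2.04) and 0.688 (0.557 to 0.849). The 11p15 cluster, at 103, was below both sides, with 124 peaks per Mb (110 to 141) on the left and 113 (98.7 to 129) on the right. The lower density of 11q11 and 1q44 relative to their flanks therefore rested on the side with a whole 2 Mb.

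Part of the flank density came from single windows. The densest 100 kb of flank held 48 peaks beside the 11p15 cluster (chromosome 11 from 3700001 to 3800000), 38 beside 11q11 (chromosome 11 from 58300001 to 58400000) and 50 beside 1q44 (chromosome 1 from 247000001 to 247100000). Without that window the ratios to the flanks were 0.942 (0.792 to 1.12) for 11p15, 0.793 (0.639 to 0.982) for 11q11 and 0.775 (0.621 to 0.961) for 1q44, and 0.843 (0.753 to 0.944) pooled. Leaving out these windows was chosen after their counts had been seen.

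Set among windows of its own length along its chromosome, no cluster was extreme. Of 1223 windows of 1.9 Mb on chromosome 11, stepped by 100 kb and clear of the clusters, 74.3% held more peaks than the 196 of the 11p15 cluster and 24.6% held fewer, and the windows ran from 94 to 391 peaks with a median of 229. For 11q11, 87.7% of 1232 windows of 1.6 Mb held more than its 141 peaks and 11.4% fewer, with a median of 192 and a lowest of 72. For 1q44, 77.7% of 2205 windows of 1.2 Mb on chromosome 1 held more than its 119 peaks and 21.6% fewer, with a median of 151 and a lowest of 35. These windows overlap and are not independent. The spread along the chromosomes is thus much wider than the counting intervals, and each of the 3 clusters lies inside it, with most windows above it.

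**Figure D2:**
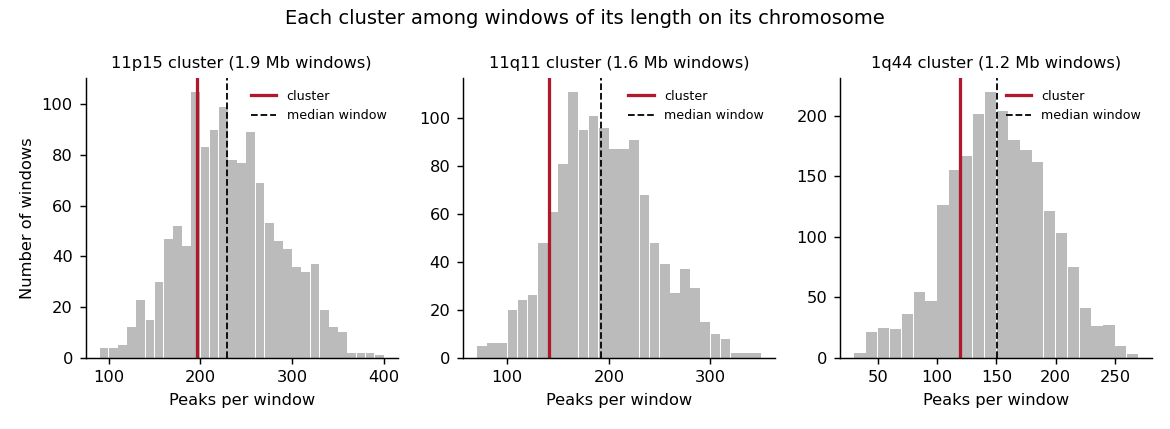
Number of windows (vertical axis) by peaks per window (horizontal axis, bins of 10 peaks) for windows as long as each cluster along its chromosome, with the cluster as a red line and the median window as a dashed line. The clusters, at 196, 141 and 119 peaks, lie left of medians of 229, 192 and 151 and right of the sparsest windows.

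Counted in windows of 100 kb, the peaks of the clusters were spread rather evenly, with few crowded or nearly empty windows. Gaps between single peaks, given further below, are another measure, and by it 11q11 was not more even than the rest. The 47 windows of 100 kb averaged 9.70 ± 3.35 peaks (SD over windows), against 12.7 ± 8.22 in 86 flank windows and 12.4 ± 6.64 in 3446 windows of the rest of both chromosomes. The variance divided by the mean, which is 1 for counts that fall independently at a constant rate, was 1.16 in the clusters, 5.32 in the flanks and 3.55 in the rest. Without the densest window beside each cluster the pooled flank value was 2.48. It was then 2.78 beside 11p15, 1.42 beside 11q11 and 2.87 beside 1q44. In the right flank of 11p15 alone, with all its windows, the value was 1.72. Inside the clusters it was 1.21 at 11p15, 1.17 at 11q11 and 1.07 at 1q44, so the 11q11 flanks came near their cluster. A short region can vary less than a whole chromosome, so these values were also ranked among the windows of equal length. There 84.9% of windows had a higher value than 11p15, 83.7% a higher value than 11q11 and 83.9% a higher value than 1q44. The ranked windows were not matched for peak number.

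No window of the clusters was crowded by the measure of the rest of their chromosomes. The median 100 kb window of the rest held 11 peaks. Windows at or over 2 times that, 22 peaks, numbered 0 of 47 in the clusters, 6 of 86 in the flanks (6.98%) and 313 of 3446 in the rest, a background of 9.08% (8.05% on chromosome 11 and 9.65% on chromosome 1). This upper threshold was chosen after the counts had been seen. Sparser regions also reach 22 peaks less often, so the count does not stand apart from density. Among windows as long as each cluster, the densest 100 kb held more than the 16 peaks of 11p15 in 88.0%. It held more than the 14 of 11q11 in 90.4% and more than the 19 of 1q44 in 66.9%. By that rank no cluster was extreme. Windows under 0.5 times the median numbered 2 of 47 in the clusters (4.26%) and 8 of 86 in the flanks (9.30%), against a background of 11.8%. Both counts describe 47 windows only and were not tested.

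**Figure D3:**
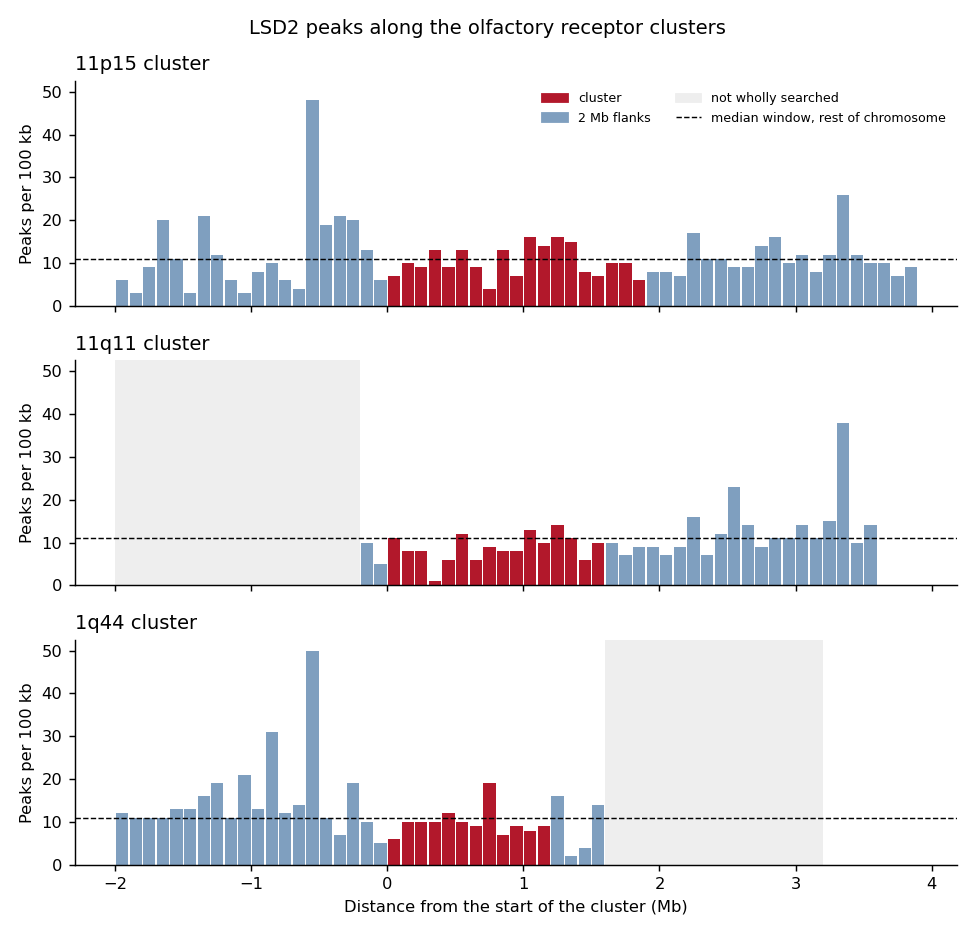
Peaks per 100 kb window (vertical axis) by distance from the start of each cluster in Mb, with cluster windows in red, flank windows in blue, windows not wholly searched shaded grey and the median window of the rest of the chromosome, 11 peaks, dashed. Cluster windows run from 1 to 19 peaks, and flank windows reach 48, 38 and 50.

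In the 11p15 cluster the windows ran from 4 to 16 peaks. The fewest, 4, lay on chromosome 11 from 5000001 to 5100000, and the most, 16, from 5300001 to 5400000, where the neighbouring windows from 5400001, 5500001 and 5600001 held 14, 16 and 15. These 4 adjacent windows are the densest stretch of the cluster, while those at its edges, from 4300001 and 6100001, held 7 and 6. The peak just outside the left edge (4298940 to 4299350) had its midpoint 855 bp from it, and the first inside (4308093 to 4308353) was 8222 bp from it. At the right edge the last peak inside was 13573 bp away and the first outside 3881 bp.

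In the 11q11 cluster the windows ran from 1 to 14 peaks. The window on chromosome 11 from 55300001 to 55400000 held a single peak and the one from 56200001 to 56300000 held 14. The first 6 windows held 11, 8, 8, 1, 6 and 12 peaks. The outermost peaks inside were 9380 bp from the left edge and 1517 bp from the right, and the nearest outside were 2488 and 8208 bp away.

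In the 1q44 cluster the windows ran from 6 to 19 peaks, and 10 of the 12 lay between 7 and 12. The window on chromosome 1 from 247600001 to 247700000 had the fewest and the one from 248300001 to 248400000 the most. Without that last window no other exceeded 12. The outermost peaks inside lay 13124 bp from the left edge and 7650 bp from the right, and the nearest outside lay 261 and 9470 bp away.

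Peaks in the clusters were short, with medians close to those of the rest. The pooled median width was 164 bp (quartiles 151 and 271 bp), against 176 bp (153 and 313 bp) in the flanks and 170 bp (152 and 293 bp) in the rest of both chromosomes. The median was 166 bp at 11p15 (160 to 177), 163 bp at 11q11 (157 to 177) and 166 bp at 1q44 (160 to 192), and the 95% intervals given include, for each of the 3, the 170 bp of the rest of either chromosome. The narrow class, 140 bp or more and under 170 bp, was 52.9% of the clusters (48.2% to 57.5%), 45.5% of the flanks (42.5% to 48.5%) and 48.8% of the rest (48.3% to 49.3%). Pooled, the clusters are thus nearer to the rest in width than to their flanks, whose median was the highest. The wider flank peaks lay mainly on the left sides. Median widths there were 194 bp at 11p15, 258 bp at 11q11 (16 peaks) and 180 bp at 1q44. On the right sides they were 171, 168 and 159 bp in the same order, near or below the 170 bp of the rest.

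Wide peaks took a smaller share of the 11p15 and 11q11 clusters than of the rest of their chromosome, and their small number leaves a large counting error. Wide peaks, taken as those as wide as the widest 10% of all peaks in the list, numbered 33 of 456 in the clusters, or 7.24% (5.03% to 10.0%), against 13.5% (11.6% to 15.7%) in the flanks and a background of 9.23% in the rest. At 11p15 they were 10 of 196, or 5.10% (2.47% to 9.18%), against 14.3% (11.3% to 17.8%) in its flanks and 8.91% in the rest of chromosome 11. At 11q11 they were 10 of 141, or 7.09% (3.45% to 12.7%), against 10.3% (6.95% to 14.5%) and 8.91%. At 1q44 they were 13 of 119, or 10.9% (5.95% to 18.0%), against 15.0% (11.4% to 19.2%) in its flanks and 9.41% in the rest of chromosome 1. The 1q44 cluster is therefore above the rest of its chromosome on this measure and the other 2 below, and the interval of each of the 3, like the pooled one, includes its background. The flanks differed by side. Wide peaks made up 18.9% of the left side at 11p15, 18.8% at 11q11 (3 of 16 peaks) and 15.8% at 1q44. On the right sides the shares were 9.29%, 9.77% and 8.11% in the same order.

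Counted per Mb, wide peaks gave lower ratios than all peaks did, except at 1q44 against the rest of its chromosome. Among wide peaks the pooled density ratio was 0.409 (0.272 to 0.600) to the flanks and 0.614 (0.422 to 0.864) to the rest. For 11p15 it was 0.310 (0.142 to 0.605) to the flanks and 0.487 (0.233 to 0.898) to the rest, the lowest of the clusters. The 68 wide peaks of its flanks were uneven, with 47 on the left and 21 on the right, so the ratio to the flanks rests more on the left side. For 11q11 the ratio was 0.492 (0.213 to 1.04) to the flanks and 0.578 (0.277 to 1.07) to the rest, and both intervals include equality. For 1q44 it was 0.504 (0.252 to 0.939) to the flanks, while the 0.920 (0.489 to 1.58) to the rest was nearer to equality than the 0.792 of all its peaks.

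The widest peak of the 11p15 cluster spanned 826 bp on chromosome 11 from 5520211 to 5521036, followed by 635 bp from 5733788 to 5734422 and 534 bp from 4402013 to 4402546. The widest of the 11q11 cluster spanned 927 bp from 55016529 to 55017455, followed by 619 bp from 55931137 to 55931755 and 606 bp from 55009078 to 55009683. Of these 3, the 927 bp and 606 bp peaks lay in the first window of the cluster, on the side of the long peak-free stretch. In the 1q44 cluster the widest was 619 bp on chromosome 1 from 248001711 to 248002329, followed by 610 bp from 248751253 to 248751862 and 590 bp from 247738531 to 247739120. None of the 456 reached 1000 bp. In the rest of chromosome 11 the share of peaks up to 1000 bp was also 100.0% after rounding. The widest peak in the flanks had 949 bp and that in the rest 6658 bp. These came from 1094 and 42743 peaks. A maximum tends to grow with the number of peaks, so the maxima do not compare the regions.

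Width also varied inside the clusters. The first 3 windows of the 11q11 cluster, from 55000001 to 55300000, had median widths of 255, 258 and 250 bp for 11, 8 and 8 peaks, and the next 2 had 157 and 152 bp for 1 and 6 peaks. In the 11p15 cluster the window medians ran from 152 bp, in the window from 5000001 that also had the fewest peaks, to 210 bp in the window from 5700001. In the 1q44 cluster they ran from 146 bp from 247800001 to 325 bp from 247700001, both with 10 peaks. With so few peaks a window, these medians describe single windows only.

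**Figure D4:**
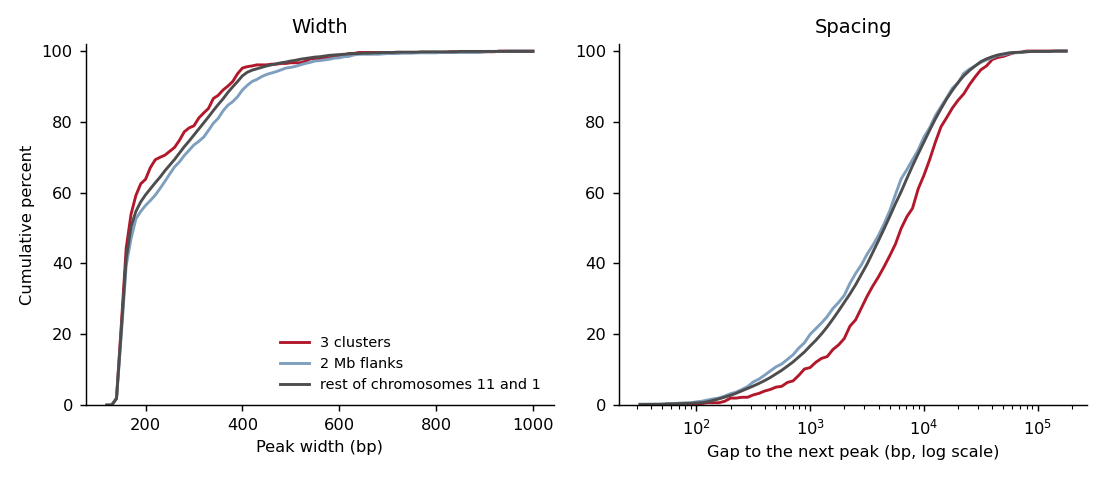
Cumulative percent (vertical axes) of peaks by width in bp, left, and of gaps to the next peak in bp on a log scale, right, for the 3 clusters pooled, their 2 Mb flanks and the rest of chromosomes 11 and 1. The width curves lie close, with medians of 164, 176 and 170 bp, while the gap curve of the clusters is shifted to longer gaps, with medians of 6330, 4269 and 4494 bp.

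Pooled over the clusters, peaks stood further apart, and a smaller share of their gaps was under 1 kb. The gap, from the end of a peak to the start of the next, had a pooled median of 6330 bp (5622 to 7649), against 4269 bp (3806 to 4768) in the flanks and 4494 bp (4420 to 4568) in the rest. Sparser peaks have longer gaps by construction, so this measure does not stand apart from density. The median was 5888 bp at 11p15 (5233 to 7385), against 4304 bp in its flanks and 4766 bp in the rest of chromosome 11. It was 6484 bp at 11q11 (4504 to 8996), against 4758 and 4766 bp, and 7083 bp at 1q44 (5067 to 8903), against 4046 bp in its flanks and 4368 bp in the rest of chromosome 1. The interval of 11q11 includes the medians of its flanks and of the rest. Divided by the mean gap, which removes the density, the pooled median was 0.631 in the clusters, 0.560 in the flanks and 0.573 in the rest. By cluster this quotient was 0.625 at 11p15, 0.583 at 11q11 and 0.726 at 1q44, and 11q11 lay below the 0.595 of the rest of chromosome 11.

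Gaps under 1 kb made up 10.6% of the gaps in the clusters (7.92% to 13.8%, 48 of 453), against 218 of 1088 gaps in the flanks (17.7% to 22.5%) and 16.6% in the rest. The share was 11.8% at 11p15 (7.63% to 17.2%), against 20.1% in its flanks and a background of 15.8%, and 10.7% at 11q11 (6.12% to 17.1%), against 19.3% and 15.8%. At 1q44 it was 8.47% (4.14% to 15.0%), against 20.6% in its flanks and a background of 17.1%. The intervals of 11p15 and 11q11 include their background. Among windows of equal length, 92.9% had a higher share than 1q44, compared with 80.8% for 11q11 and 74.6% for 11p15. The share of short gaps also falls as peaks become sparser, and the ranked windows were not matched for peak number. It therefore does not stand apart from density either. The shortest gap was 107 bp at 11p15 (chromosome 11 from 5426662 to 5426768), 120 bp at 11q11 (56430209 to 56430328) and 52 bp at 1q44 (chromosome 1 from 248304108 to 248304159).

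Long gaps took the highest share in 11q11, the sparsest cluster, and this share too rises as peaks become sparser. Gaps over 20 kb made up 13.9% of those in the 3 clusters (10.9% to 17.4%), against 9.01% in the flanks and a background of 8.88%. At 11q11 the share was 18.6% (12.5% to 26.0%, 26 of 140), against 10.7% in its flanks and a background of 9.21% in the rest of chromosome 11. At 1q44 they made up 13.6% (7.95% to 21.1%), against 5.51% and 8.70%, and at 11p15 10.8% (6.79% to 16.0%), against 10.6% and 9.21%. The longest gaps of the 11q11 cluster were 74758 bp on chromosome 11 from 55620347 to 55695104, 70840 bp from 55296187 to 55367026, which falls mostly in its sparsest window, and 60016 bp from 55804233 to 55864248. Those of the 11p15 cluster were 60187 bp from 6085324 to 6145510, 55160 bp from 4563842 to 4619001 and 54756 bp from 4836673 to 4891428. Those of the 1q44 cluster were 55890 bp on chromosome 1 from 248686544 to 248742433, 46090 bp from 248529834 to 248575923 and 37350 bp from 248218209 to 248255558. The longest gap of the rest was 369136 bp of 14791 gaps on chromosome 11 and 347656 bp of 27945 gaps on chromosome 1. The clusters had only 195 gaps at 11p15, 140 at 11q11 and 118 at 1q44. A maximum tends to grow with the number of gaps, so these maxima do not compare the regions.

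With fewer and slightly shorter peaks, the share of sequence under a peak was lower in the clusters. Peaks covered 2.14% of the clusters (101 kb), 3.07% of the flanks and 2.85% of the rest. The share was 1.96% at 11q11, 2.21% at 11p15 and 2.28% at 1q44, against 2.84%, 2.92% and 3.54% in their flanks and 2.77%, 2.77% and 2.89% in the rest of their chromosomes.

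The clusters differed most from each other in how often a peak was listed. The deposited list repeats some intervals on identical lines, and of the 196 peaks of 11p15, 88 were listed more than once, or 44.9% (37.8% to 52.1%), against 20.2% (16.7% to 24.1%) in its flanks and a background of 11.5% in the rest of chromosome 11. At 11q11 it was 4 of 141, or 2.84% (0.778% to 7.10%), against 18.0% in its flanks and 11.5%. At 1q44 it was 14 of 119, or 11.8% (6.58% to 19.0%), against 11.5% in its flanks and a background of 10.4%. In the 11p15 cluster 39 peaks were listed 2 times, 28 were listed 3 times, 20 were listed 4 times and 1 was listed 5 times, while no peak of 11q11 was listed more than 2 times.

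The repeated peaks of 11p15 were grouped. From 5254690 to 5549534, a stretch of 295 kb, 45 successive peaks were all listed more than once and took up 142 lines. A second group of 9 peaks with 33 lines ran from 5608362 to 5664980, and another of 6 peaks with 14 lines from 5706085 to 5758658. All 16 peaks of the densest window, from 5300001, and all 14 of the next were repeated. In 1q44 the largest group was 5 peaks from 248112334 to 248166307 on chromosome 1. The sources used here do not say what produced the repeats. The choice of counting them once decides the direction at 11p15, since with every line counted its ratio was 1.28 (1.12 to 1.46) to the flanks and 1.36 (1.22 to 1.51) to the rest of the chromosome.

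**Figure D5:**
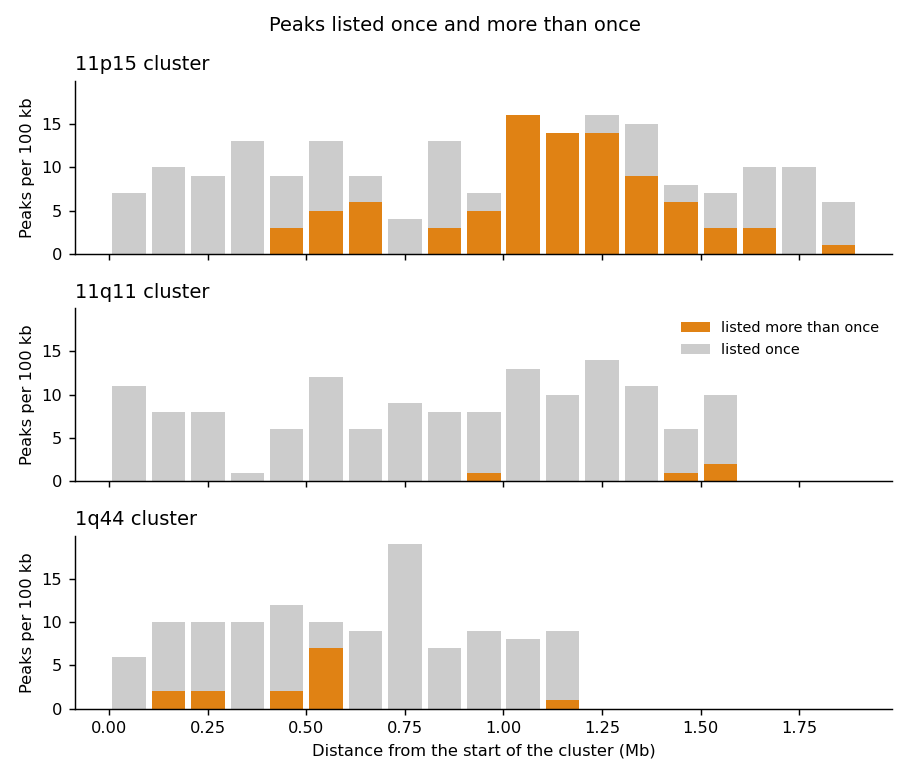
Peaks per 100 kb window (vertical axis) by distance from the start of each cluster in Mb, split into peaks listed more than once (orange) and once (grey). In the 11p15 cluster 88 of 196 peaks are repeated and most of them are grouped, against 4 of 141 at 11q11 and 14 of 119 at 1q44.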

How the data were processed

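The authors, per the file headers, trimmed reads and took out duplicates before running MACS on the LSD2 reads with the input as control. Settings named there were 120 bp for both read and fragment length, 2700 Mb for the effective genome, 1e-05 as p-value cutoff, 32 as enrichment factor and local bias detection. BWA and hg19 stand in the submitters' processing notes, without versions. The deposited positions carry no score, and depth is unknown. Mappability and DNA copy number were not measured here. Run dates of ChIP and input differ in the file headers, so library and run cannot be told apart.

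Identical lines (414095 in all) were counted once. Positions are printed counted from 1. Intervals are Poisson (densities), Clopper-Pearson (shares, and ratios by conditioning on the total) or order-statistic (medians). Python 3.11.15, NumPy 2.4.6, pandas 2.3.3, SciPy 1.17.1 and matplotlib 3.10.9 were used. The procedure was tested on simulated peaks that were placed independently. That test checked the arithmetic, not how the intervals hold for peaks spread as unevenly as the real ones. For each cluster the text names the 3 widest peaks, the 3 longest gaps, the densest and sparsest 100 kb windows and the peaks at the edges. Regions, measures and rules were chosen with earlier results of these data known. No hg19 genome sequence was used here, so no peak sequence is shown.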

Additional observations from a re-analysis of the deposited data

How the results depend on the processing

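Of 100 alternative values for 20 results, 87 stayed within the main value's 95% interval, 11 moved outside it and 2 reversed. These are not separate checks. Membership by any overlap left every value as it was, and the pooled results share their peaks with the single clusters. With every deposited line counted, the density ratio of 11p15 reversed to 1.28 against the flanks and 1.36 against the rest of the chromosome, as 88 of its 196 peaks are listed more than once. The same setting gave 0.578 for 11q11 against its flanks, 0.885 for the 3 clusters against flanks and 0.972 (0.897 to 1.05) against the rest. Among peaks as wide as the widest 10% of the list, ratios to the flanks were 0.310 at 11p15, 0.492 at 11q11, 0.504 at 1q44 and 0.409 pooled, and ratios to the rest were 0.487 at 11p15, 0.578 at 11q11, 0.920 at 1q44 (0.489 to 1.58, still within its main interval) and 0.614 pooled. With peaks at least as wide as the median peak of the list the pooled ratio to the flanks was 0.677. In that set the ratio of 11p15 to its flanks, 0.756 (0.586 to 0.966), no longer included equality in its interval, and that of 1q44 to the rest, 0.781 (0.591 to 1.01), then did. The cause of the moves under the width limits was not tested. Merging peaks up to 100 bp apart, membership by any overlap of 1 bp, clusters shortened by 100 kb, flanks of 1 Mb, leaving out peak-free stretches over 100 kb and flanks without their densest window moved no value outside its main interval, but some changed whether an interval includes equality. Equality was then included with 1 Mb flanks at 11q11 (0.850, 0.664 to 1.09) and with shortened clusters against the rest at 11p15 (0.887, 0.763 to 1.03) and 1q44 (0.831, 0.679 to 1.01), and no longer included with 1 Mb flanks at 11p15 (0.779, 0.644 to 0.940). Leaving out the densest flank window was chosen after seeing the data. No paired analysis was possible because there was 1 library of each kind. Depth, being unknown, limits these densities. Clusters, flanks and rest share the same libraries, but how many reads could be placed in each is not known. Whether the lower counts come from little LSD2 or from few reads in the clusters was not tested.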
